A study of Mus musculus with 8 samples.

Results

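Mitotic cell division genes were described in splenic CD8+ T cells of mice: 53 genes for the spindle, its checkpoint, chromosome segregation and cytokinesis, chosen by symbol from the 22520 rows of the expression table. The cells were held under prolonged stimulation of the T cell receptor in culture for 6 days. By the study's methods, all cultures received antibodies to CD3 and to the costimulatory receptor CD28, and the cytokine IL-2. From day 3, 4 cultures received 40 µM diisopropylamine dichloroacetate (DADA, an inhibitor of pyruvate dehydrogenase kinase), and 4 received the same volume of its solvent, dimethyl sulfoxide (DMSO). All the cells came from wild-type C57BL/6J male mice by the study's methods, although the labels fill the genotype field with "control" for the DMSO libraries and "model" for the DADA libraries. The 8 libraries are named as biological replicates, but they are not tied to separate mice, so p-values measure the spread between these libraries. The comparison asks how the inhibitor changed the transcripts of cell division in T cells driven toward exhaustion.

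Cells enter mitosis when cyclin A and cyclin B activate the kinase CDK1, which condenses the chromosomes and starts the building of the spindle. Microtubules then attach to kinetochores, the protein plates on the centromeres, and the spindle checkpoint holds back the anaphase-promoting complex until every chromosome is attached. CDC20 activates that complex, securin and cyclin B are destroyed, separase cuts cohesin, and the cleavage furrow divides the cell. Most of these genes are transcribed mainly in G2 and M phase, and CD8+ T cells that have met antigen divide rapidly, so these transcripts are widely read as a proliferation programme in T cells.

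Transcription in G2 and M phase is known to act through the CHR element, which the MuvB complex recognises, and through CCAAT boxes, which NF-Y binds. Both were searched in RefSeq promoter windows of GRCm38.p6, which run from 250 bases before to 50 bases after the start of a gene. Of the 53 genes, 45 matched a window by symbol, and 3 of them had more than 1 window. The CHR element was searched as TTTGAA, read as TTCAAA on the other strand, and the CCAAT box as CCAAT, read as ATTGG on the other strand. The last 150 bases before the start are shown for genes with a lower level under DADA first (Cdc20, Cdk1, Ube2c and Espl1) and then for genes with a higher level (Kif11, Ect2, Mki67 and Pttg1), to set genes of both directions side by side. Each sequence runs 5′ to 3′ along the gene's own strand, with both motifs in capitals.
Cdc20, chr4:118437344-118437493 (-): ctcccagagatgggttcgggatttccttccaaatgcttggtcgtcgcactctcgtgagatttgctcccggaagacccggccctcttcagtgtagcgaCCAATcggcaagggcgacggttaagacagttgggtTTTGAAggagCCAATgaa
Cdk1, chr10:69352913-69353062 (-): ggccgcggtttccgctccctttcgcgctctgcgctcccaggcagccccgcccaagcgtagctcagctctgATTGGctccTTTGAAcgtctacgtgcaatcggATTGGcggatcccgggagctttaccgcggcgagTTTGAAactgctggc
Ube2c, chr2:164769779-164769928 (+): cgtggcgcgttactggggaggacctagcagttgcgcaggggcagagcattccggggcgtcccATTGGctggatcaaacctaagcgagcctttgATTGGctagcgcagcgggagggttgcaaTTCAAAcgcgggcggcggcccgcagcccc
Espl1, chr15:102296143-102296292 (+): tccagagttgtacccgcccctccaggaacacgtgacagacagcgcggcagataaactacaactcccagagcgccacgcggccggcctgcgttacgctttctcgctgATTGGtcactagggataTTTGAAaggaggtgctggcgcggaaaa
Kif11, chr19:37376232-37376381 (+): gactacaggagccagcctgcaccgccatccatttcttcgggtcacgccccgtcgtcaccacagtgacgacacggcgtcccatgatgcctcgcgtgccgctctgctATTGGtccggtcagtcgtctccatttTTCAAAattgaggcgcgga
Ect2, chr3:27153879-27154028 (-): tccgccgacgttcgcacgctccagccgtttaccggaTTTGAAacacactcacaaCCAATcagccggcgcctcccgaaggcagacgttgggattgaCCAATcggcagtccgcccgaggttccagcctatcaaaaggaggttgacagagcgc
Mki67, chr7:135716380-135716529 (-): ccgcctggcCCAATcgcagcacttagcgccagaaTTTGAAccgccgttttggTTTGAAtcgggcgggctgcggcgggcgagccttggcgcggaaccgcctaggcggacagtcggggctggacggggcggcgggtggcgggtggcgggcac
Pttg1, chr11:43425982-43426131 (-): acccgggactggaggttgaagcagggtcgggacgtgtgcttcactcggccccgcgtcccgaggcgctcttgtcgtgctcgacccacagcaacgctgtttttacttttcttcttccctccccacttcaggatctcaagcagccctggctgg

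Of the 45 genes with a window, 35 (77.8%) held a CHR element and 33 (73.3%) a CCAAT box, and 29 (64.4%) held both. Over all 32851 promoter windows of this length, the shares were 17.9%, 37.4% and 7.0%, and over the 8216 tested genes with a window they were 14.5%, 43.6% and 6.2%. A CHR element lay within 50 bases of the start in 32 of the 45 genes (71.1%), against 3.8% of the tested genes with a window. The motifs overlapped in 1 window of these genes. By the direction of their change, described next, 31 of 40 that fell (77.5%) and 4 of 5 that rose held a CHR element, and 29 of 40 (72.5%) and 4 of 5 held a CCAAT box. The exception among the latter was Pttg1, whose window held neither sequence. Among other genes of mitosis, 33.0% of 100 with a window held a CHR element and 56.0% a CCAAT box, and among DNA replication genes 7 and 20 of 35 did. A match is a string of letters in a window, and binding was not measured.

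With DADA, the level of most mitotic genes was lower. Expression was given as FPKM, the fragments mapped to a gene scaled by its transcript length and by the mapped fragments of the library. The level was compared as log2(FPKM + 1) with limma over 10666 genes with 1 FPKM or more in 4 or more libraries. All 53 genes were among them, with a mean between 6.90 and 186.3 FPKM in DMSO. At an adjusted p-value under 0.05, 48 of the 53 fell and 5 rose, whereas 35.3% of all genes tested fell and 30.9% rose. In 48 genes every DADA library lay below every DMSO library, as in 32.2% of all genes tested, and in 4 every DADA library lay above, as in 28.4%. The median log2 fold change was -0.48, against -0.02 over all genes tested, of which 6.72% had a value below -0.48. In a bulk sample, a smaller share of dividing cells and less RNA per dividing cell cannot be told apart.

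The fall was moderate in size and uniform between libraries. Among the 48 genes that fell, the mean FPKM was between 6.29% and 43.7% lower with DADA, with a median of 30.2%. The median FPKM of the 53 genes lay between 34.5 and 36.0 in the DMSO libraries and between 25.1 and 26.0 in the DADA libraries. Their share of the summed FPKM of a library was 0.514% to 0.523% with DMSO and 0.394% to 0.408% with DADA, so neither measure overlapped between the groups. The median coefficient of variation of a gene between libraries was 3.19% in DMSO and 3.32% in DADA.

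**Figure D1:**
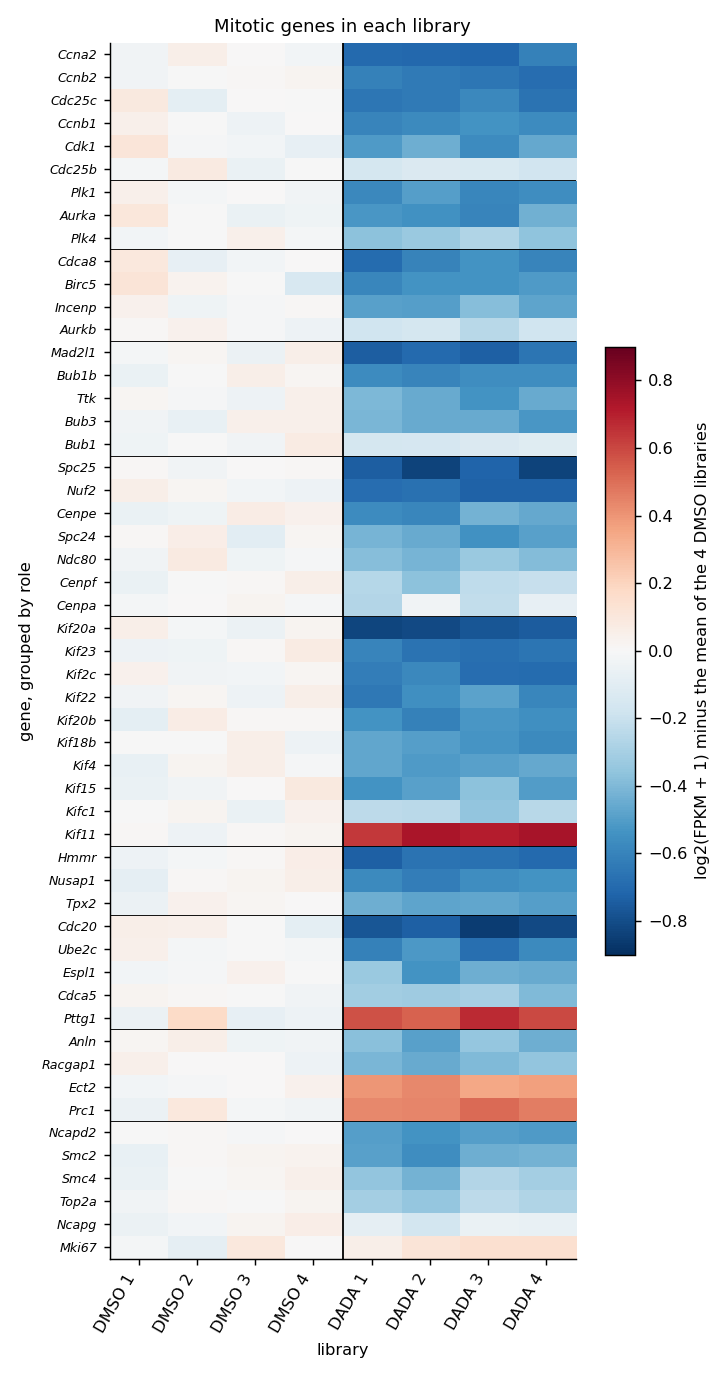
Level of each of the 53 genes (rows, grouped by role) in each of the 8 libraries (columns), as log2(FPKM + 1) minus the mean of the 4 DMSO libraries; blue is lower and red is higher. The DADA columns are blue for 48 genes and red for Kif11, Pttg1, Ect2, Prc1 and, faintly, Mki67.

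All 6 genes of the cyclin-CDK1 module fell, with a median log2 fold change of -0.60. Ccna2 encodes cyclin A2, which acts with CDK2 in S phase and with CDK1 at the entry to mitosis. It measured 78.0, 82.8, 80.3 and 78.6 FPKM in DMSO and 48.9, 48.6, 48.2 and 52.2 FPKM in DADA. The lowest DMSO library stood well above the highest DADA library, and the log2 fold change was -0.68 ± 0.03 (SE, n = 4 per group; limma, adjusted p = 3.65e-08). Ccnb1 encodes cyclin B1, the main partner of CDK1 in mitosis, and measured 81.8, 79.3, 76.9 and 79.4 FPKM in DMSO and 52.1, 53.1, 54.3 and 53.3 FPKM in DADA. Again the groups did not overlap, and the mean was 33.0% lower (log2 fold change -0.57 ± 0.03 SE, limma adjusted p = 2.88e-08). Cdk1, the kinase itself, was at 28.5, 26.2, 25.9 and 24.95 FPKM in DMSO and at 18.3, 19.2, 17.5 and 18.9 FPKM in DADA. It fell by 0.49 on the log2 scale (± 0.05 SE, limma adjusted p = 5.64e-06), with no overlap. Mouse Ccnb1 has processed pseudogenes (Ccnb1-ps is 99.2% identical over 1287 bases) that are not rows of the table, so reads shared with them are uncertain. The same holds for shorter copies, also not rows of the table, of Racgap1 (98.2% over 488 bases), Mad2l1 (95.4% over 454) and Ndc80 (95.05% over 303).

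The other cyclin B gene, Ccnb2, fell from 47.2 ± 0.82 to 29.8 ± 0.65 FPKM (mean ± SD, n = 4 in each group, as for all means given as such). The CDC25 phosphatases, which remove the inhibitory phosphates from CDK1, moved by different amounts. Cdc25c had the lowest DADA mean of the 53 genes and fell from 8.83 ± 0.48 to 5.33 ± 0.16 FPKM, which was 39.6% lower. Cdc25b fell from 18.3 ± 0.79 to 16.4 ± 0.23 FPKM, which was 10.5% lower (limma adjusted p = 0.00336).

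The 3 kinases grouped as mitotic kinases fell, with a median log2 fold change of -0.52. Plk1, the polo-like kinase that drives centrosome maturation and mitotic entry, measured 42.0, 40.0, 40.7 and 39.7 FPKM in DMSO and 26.9, 28.5, 26.7 and 27.3 FPKM in DADA. The groups were far apart, with a log2 fold change of -0.55 ± 0.03 (SE; limma, adjusted p = 1.18e-07). Aurka, the Aurora kinase of the spindle poles, fell from 35.9 ± 1.86 to 24.6 ± 1.21 FPKM. Plk4, which starts centriole duplication, fell less, from 32.5 ± 0.75 to 25.6 ± 0.79 FPKM, or 21.3%.

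The chromosomal passenger complex corrects wrong attachments and later guides cytokinesis. Its 4 genes all fell (median log2 fold change -0.50), but its kinase fell less than its other subunits. Aurkb, the Aurora kinase of the complex, measured 42.2, 43.0, 41.5 and 40.4 FPKM in DMSO and 36.8, 37.3, 34.9 and 36.8 FPKM in DADA. The groups did not overlap, although the mean was only 12.7% lower (log2 fold change -0.19 ± 0.03 SE, limma adjusted p = 0.000262). Cdca8, the borealin subunit, measured 71.9, 63.8, 66.3 and 67.5 FPKM in DMSO and 41.2, 44.0, 46.1 and 44.2 FPKM in DADA. Its mean was 34.9% lower (log2 fold change -0.61 ± 0.04 SE, limma adjusted p = 7.82e-07). Birc5 encodes survivin, the subunit that docks on phosphorylated histone H3. It measured 83.3, 78.7, 76.7 and 69.5 FPKM in DMSO and 50.9, 52.6, 52.6 and 53.7 FPKM in DADA (log2 fold change -0.54 ± 0.05 SE). DMSO 4 was the lowest DMSO library, and it still lay above all 4 DADA libraries. Incenp, the scaffold that activates Aurora B, fell from 47.9 ± 1.17 to 34.6 ± 1.35 FPKM.

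All 5 genes of the spindle checkpoint fell (median log2 fold change -0.46). Mad2l1 encodes MAD2, which binds and silences CDC20, and it measured 48.0, 49.4, 47.0 and 50.5 FPKM in DMSO and 28.7, 29.6, 28.9 and 30.5 FPKM in DADA. With a mean 39.6% lower, it had the largest fall of the checkpoint genes (log2 fold change -0.71 ± 0.03 SE, limma adjusted p = 2.42e-08). Bub3, the adaptor that brings the BUB proteins to the kinetochore and the most abundant of the 5, measured 68.5, 67.0, 72.5 and 72.5 FPKM in DMSO and 52.5, 51.0, 51.0 and 48.3 FPKM in DADA. It fell by 0.46 on the log2 scale (± 0.03 SE), with the groups apart. Bub1b, whose product BUBR1 is part of the inhibitory complex, fell from 40.2 ± 1.34 to 26.7 ± 0.33 FPKM, and Ttk, which encodes the kinase MPS1 at the top of the pathway, fell from 13.1 ± 0.38 to 9.22 ± 0.40 FPKM. Bub1, the kinase related to BUBR1, fell by much less, from 28.1 ± 1.09 to 25.5 ± 0.41 FPKM, or 9.40% (limma adjusted p = 0.00346).

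The 7 kinetochore and centromere genes fell, with a median log2 fold change of -0.47 and a wide range from -0.78 to -0.15. Spc25 encodes a subunit of the NDC80 complex, the main microtubule anchor of the kinetochore. It measured 29.9, 29.0, 29.7 and 29.9 FPKM in DMSO and 17.3, 16.2, 17.6 and 16.2 FPKM in DADA, with a wide gap between the groups (log2 fold change -0.78 ± 0.03 SE, limma adjusted p = 2.25e-08). The remaining subunits of that complex fell from 35.9 ± 1.16 to 21.6 ± 0.48 FPKM (Nuf2), from 34.8 ± 1.59 to 24.7 ± 0.94 FPKM (Spc24) and from 31.4 ± 1.27 to 23.9 ± 0.61 FPKM (Ndc80). Thus the 4 subunits were between 23.9% and 43.2% lower. Cenpe, the kinetochore motor that moves chromosomes to the spindle equator, fell from 20.4 ± 0.89 to 14.0 ± 0.81 FPKM. Cenpf, a large protein of the outer kinetochore, fell from 6.90 ± 0.26 to 5.58 ± 0.32 FPKM.

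Cenpa, the histone H3 variant that marks the centromere, was the most abundant gene of that group. It measured 94.2, 95.5, 97.1 and 94.5 FPKM in DMSO and 79.4, 93.4, 81.8 and 90.7 FPKM in DADA. The DADA libraries were widely spread, and DADA 2 came close to the lowest DMSO library without overlap (log2 fold change -0.15 ± 0.05 SE, limma adjusted p = 0.0225). That call was lost under quantile normalization (adjusted p = 0.140) and without DMSO 3, DADA 1 or DADA 3 (adjusted p = 0.0535, 0.0557 and 0.0624).

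Of the 10 kinesin motors, 9 fell and Kif11 rose. Kif11 encodes Eg5, the motor that pushes the spindle poles apart. It measured 38.4, 36.8, 38.4 and 38.8 FPKM in DMSO and 59.6, 64.0, 62.8 and 64.4 FPKM in DADA. Every DADA library was far above every DMSO library, and the mean was 64.7% higher (log2 fold change 0.71 ± 0.03 SE, limma adjusted p = 2.50e-08). By mean FPKM among the 53 genes, Kif11 stood at rank 24 with DMSO and at rank 5 with DADA.

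The largest fall among the motors was that of Kif20a, which encodes MKLP2, the kinesin that carries the passenger complex to the spindle midzone. It measured 28.9, 27.4, 26.8 and 28.3 FPKM in DMSO and 15.3, 15.4, 15.9 and 16.1 FPKM in DADA. The groups were far apart, and the mean was 43.7% lower (log2 fold change -0.79 ± 0.03 SE, limma adjusted p = 1.73e-08). Exons of Kif20a and Cdc23 overlap on opposite strands over 1271 bases in GENCODE M21, and whether the counting used strand is not given in the sources used here. The same holds for the overlaps of Kif4 with Pdzd11 (832 bases), Ncapg with Lcorl (944), Ube2c with Tnnc2 (592) and Ccna2 with Exosc9 (510). It also holds for further overlaps of Cdca8, Nusap1, Cdc25b, Cdc25c, Cdc20, Plk1 and Kif22. Cdc23 reached at most 28.8 FPKM and also fell with DADA (log2 fold change -0.56). Pdzd11 reached at most 23.5, Lcorl 5.26, Tnnc2 0.053 and Exosc9 58.3 FPKM. Top2a and Ncapd2 overlap small nucleolar RNA genes on their own strand (122 and 237 bases), which are not rows of the table. The part of such overlaps in the values was not tested.

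Kif23, the kinesin of the centralspindlin complex of the midzone, fell from 25.2 ± 0.99 to 15.7 ± 0.41 FPKM. Kif2c, which removes tubulin from microtubule ends at centromeres, fell from 22.1 ± 0.55 to 13.8 ± 0.54 FPKM. The chromosome-bound motors Kif22 and Kif4 fell from 35.5 ± 1.12 to 23.7 ± 1.13 FPKM and from 17.4 ± 0.68 to 12.2 ± 0.19 FPKM. These 4 motors thus ended between 30.1% and 37.7% lower. Kif20b, a motor of late cytokinesis, fell from 19.3 ± 0.90 to 12.8 ± 0.35 FPKM, and Kif18b, a regulator of astral microtubule length, from 14.6 ± 0.42 to 9.91 ± 0.35 FPKM. Kif15, a motor that can stand in for Eg5 in keeping the spindle bipolar, fell from 28.0 ± 1.28 to 19.9 ± 1.08 FPKM. Kifc1, a minus-end motor that focuses the spindle poles, fell least, from 27.5 ± 0.86 to 22.6 ± 0.88 FPKM, or 17.7%. Its transcript is 96.8% identical to that of Kifc5b over 2312 bases, so its level is uncertain if the counting divided shared reads, and Kifc5b itself reached at most 11.03 FPKM in any library.

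**Figure D2:**
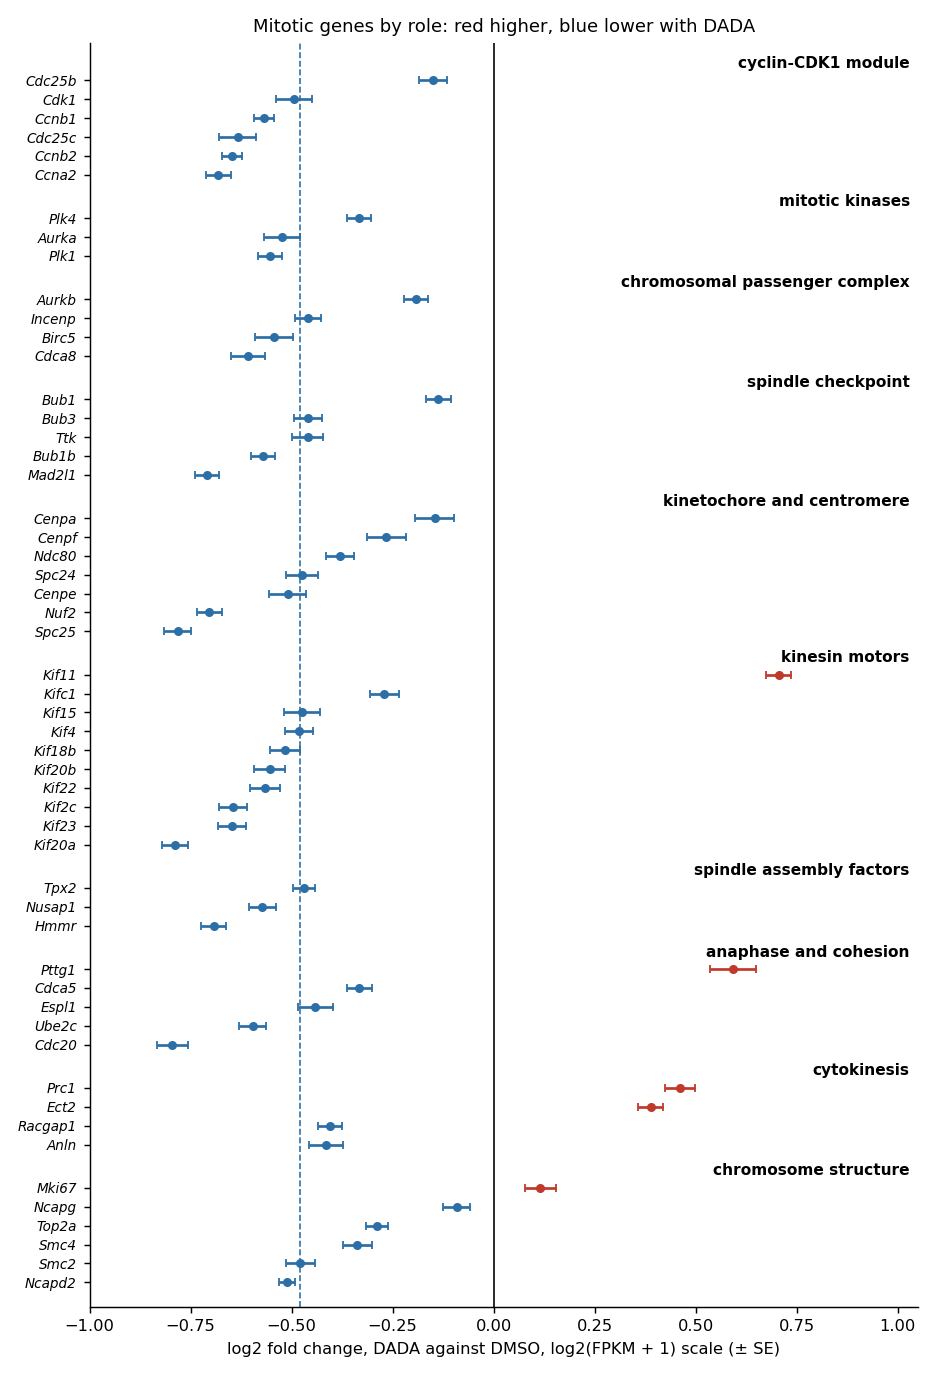
Log2 fold change of DADA against DMSO on the log2(FPKM + 1) scale (horizontal axis) for the 53 genes in their 10 roles, with bars of 1 SE from limma, n = 4 libraries per group; the dashed line marks the median of -0.48. The 5 red points to the right of 0 are Kif11, Pttg1, Prc1, Ect2 and Mki67.

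The 3 spindle assembly factors fell, by between 28.3% and 39.2% of their mean FPKM. Hmmr, a microtubule-binding protein of the spindle poles, measured 34.5, 35.2, 36.0 and 37.3 FPKM in DMSO and 21.1, 22.2, 22.1 and 21.6 FPKM in DADA. It showed no overlap and fell by 0.69 on the log2 scale (± 0.03 SE, limma adjusted p = 2.92e-08). Tpx2, which activates Aurora A and seeds microtubules around chromosomes, was the most abundant of the 3, with 50.7, 54.3, 53.3 and 52.8 FPKM in DMSO and 38.6, 37.7, 37.8 and 37.2 FPKM in DADA. The 4 DADA libraries were close together and 28.3% lower on average. Nusap1, which bundles microtubules near chromosomes, fell from 51.6 ± 2.11 to 34.4 ± 0.90 FPKM.

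Among the 5 genes of anaphase and cohesion, 4 fell and the securin gene rose. Cdc20, the activator of the anaphase-promoting complex and the target of the checkpoint, measured 70.9, 70.5, 68.1 and 64.4 FPKM in DMSO and 39.6, 40.7, 37.4 and 38.4 FPKM in DADA. The separation was wide, and the fall of 0.79 on the log2 scale (± 0.04 SE, limma adjusted p = 4.27e-08) was the largest of the 53 genes on that scale, next to Kif20a (-0.79). In percent of mean FPKM, Cdc20 was 43.0%, Spc25 43.2% and Kif20a 43.7% lower. The Cdc20 promoter, shown above, has a CHR element that begins 18 bases before the start. Ube2c, the ubiquitin-conjugating enzyme that works with the complex, measured 134.7, 128.6, 130.1 and 128.7 FPKM in DMSO and 85.1, 90.7, 81.2 and 87.3 FPKM in DADA. Its mean was 34.1% lower (log2 fold change -0.60 ± 0.03 SE), with no overlap. Espl1, which encodes separase, fell from 15.7 ± 0.31 to 11.3 ± 0.71 FPKM, and Cdca5, which encodes sororin, the protector of cohesin, fell from 22.6 ± 0.35 to 17.8 ± 0.57 FPKM.

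Pttg1 encodes securin, the inhibitor of separase that the anaphase-promoting complex destroys. It measured 15.04, 17.7, 14.8 and 15.1 FPKM in DMSO and 23.7, 23.0, 25.5 and 24.0 FPKM in DADA. DMSO 2 stood above the other DMSO libraries but below all DADA libraries, and the mean was 53.8% higher with DADA (log2 fold change 0.59 ± 0.06 SE, limma adjusted p = 7.55e-06). The transcripts of securin and separase therefore moved in opposite directions. These values are RNA levels, and the amounts of the proteins were not tested.

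The 4 cytokinesis genes divided evenly, with 2 that rose and 2 that fell. Prc1 encodes the protein that bundles the antiparallel microtubules of the spindle midzone. It measured 24.4, 27.1, 25.0 and 24.7 FPKM in DMSO and 34.5, 34.6, 36.5 and 35.2 FPKM in DADA. The groups did not overlap, and the mean was 39.1% higher (log2 fold change 0.46 ± 0.04 SE, limma adjusted p = 2.05e-06). Prc1 overlaps Rccd1 on the opposite strand over 911 bases, and Rccd1 reached at most 6.43 FPKM. Ect2 encodes the exchange factor that activates RhoA at the cleavage furrow, and measured 13.1, 13.3, 13.4 and 13.8 FPKM in DMSO and 17.98, 18.4, 17.3 and 17.6 FPKM in DADA. All 4 DADA libraries were higher, on average by 33.2% (log2 fold change 0.39 ± 0.03 SE, limma adjusted p = 2.39e-06).

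Racgap1, the centralspindlin subunit that recruits ECT2 to the midzone, measured 57.1, 55.6, 55.5 and 53.6 FPKM in DMSO and 41.5, 40.1, 41.9 and 43.1 FPKM in DADA. It moved the other way from Ect2, with a log2 fold change of -0.40 ± 0.03 (SE; limma, adjusted p = 1.00e-06). Anln encodes anillin, the scaffold of the contractile ring, and measured 11.3, 11.6, 10.8 and 10.9 FPKM in DMSO and 8.36, 7.68, 8.53 and 7.95 FPKM in DADA. It fell by 27.2%, again without overlap.

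The 6 genes of chromosome structure changed least among the roles in which all or all but 1 gene fell, with a median log2 fold change of -0.31. Top2a encodes topoisomerase II alpha, which untangles sister chromatids, and was the most abundant of the 53 genes. It measured 182.5, 187.3, 185.7 and 189.9 FPKM in DMSO and 150.8, 146.3, 158.2 and 154.4 FPKM in DADA. The mean was 18.2% lower without overlap (log2 fold change -0.29 ± 0.03 SE, limma adjusted p = 6.37e-06). Ncapd2, a subunit of condensin I, measured 75.9, 76.5, 75.7 and 76.4 FPKM in DMSO and 53.7, 52.0, 53.6 and 53.2 FPKM in DADA. The DMSO values were nearly equal, and Ncapd2 fell by 0.51 on the log2 scale (± 0.02 SE). The condensin ATPases Smc2 and Smc4 fell from 49.8 ± 1.55 to 35.5 ± 1.51 FPKM and from 127.6 ± 3.78 to 100.9 ± 4.86 FPKM.

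Ncapg, another subunit of condensin I, had the smallest change of the genes that fell. It measured 41.2, 42.0, 43.5 and 44.7 FPKM in DMSO and 40.5, 38.1, 41.1 and 40.9 FPKM in DADA, so that the highest DADA library came within a small distance of the lowest DMSO library. Its log2 fold change of -0.09 ± 0.03 (SE; limma, adjusted p = 0.0374) was not called after rescaling to TPM or quantile normalization (adjusted p = 0.209 and 0.208) or without the variance trend (adjusted p = 0.0581). Nor was it called when DMSO 3, DMSO 4, DADA 1 or DADA 2 was left out (adjusted p = 0.0852, 0.0994, 0.0592 and 0.0981).

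Mki67 encodes Ki-67, the surface coat of mitotic chromosomes and the usual marker of cycling cells. It measured 56.1, 53.5, 60.8 and 56.9 FPKM in DMSO and 58.9, 61.8, 62.8 and 63.0 FPKM in DADA. The groups overlapped, since DMSO 3 lay above DADA 1, and the mean was 8.41% higher with DADA (log2 fold change 0.12 ± 0.04 SE, limma adjusted p = 0.0240; two-sided exact permutation test, p = 0.0571). It was no longer called when DMSO 1, DMSO 2, DADA 3 or DADA 4 was left out (adjusted p = 0.0534, 0.0649, 0.0588 and 0.0624). In rank by mean FPKM among the 53 genes, it went from 12 to 6. Its promoter above holds 2 CHR elements and a CCAAT box upstream of the start.

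**Figure D3:**
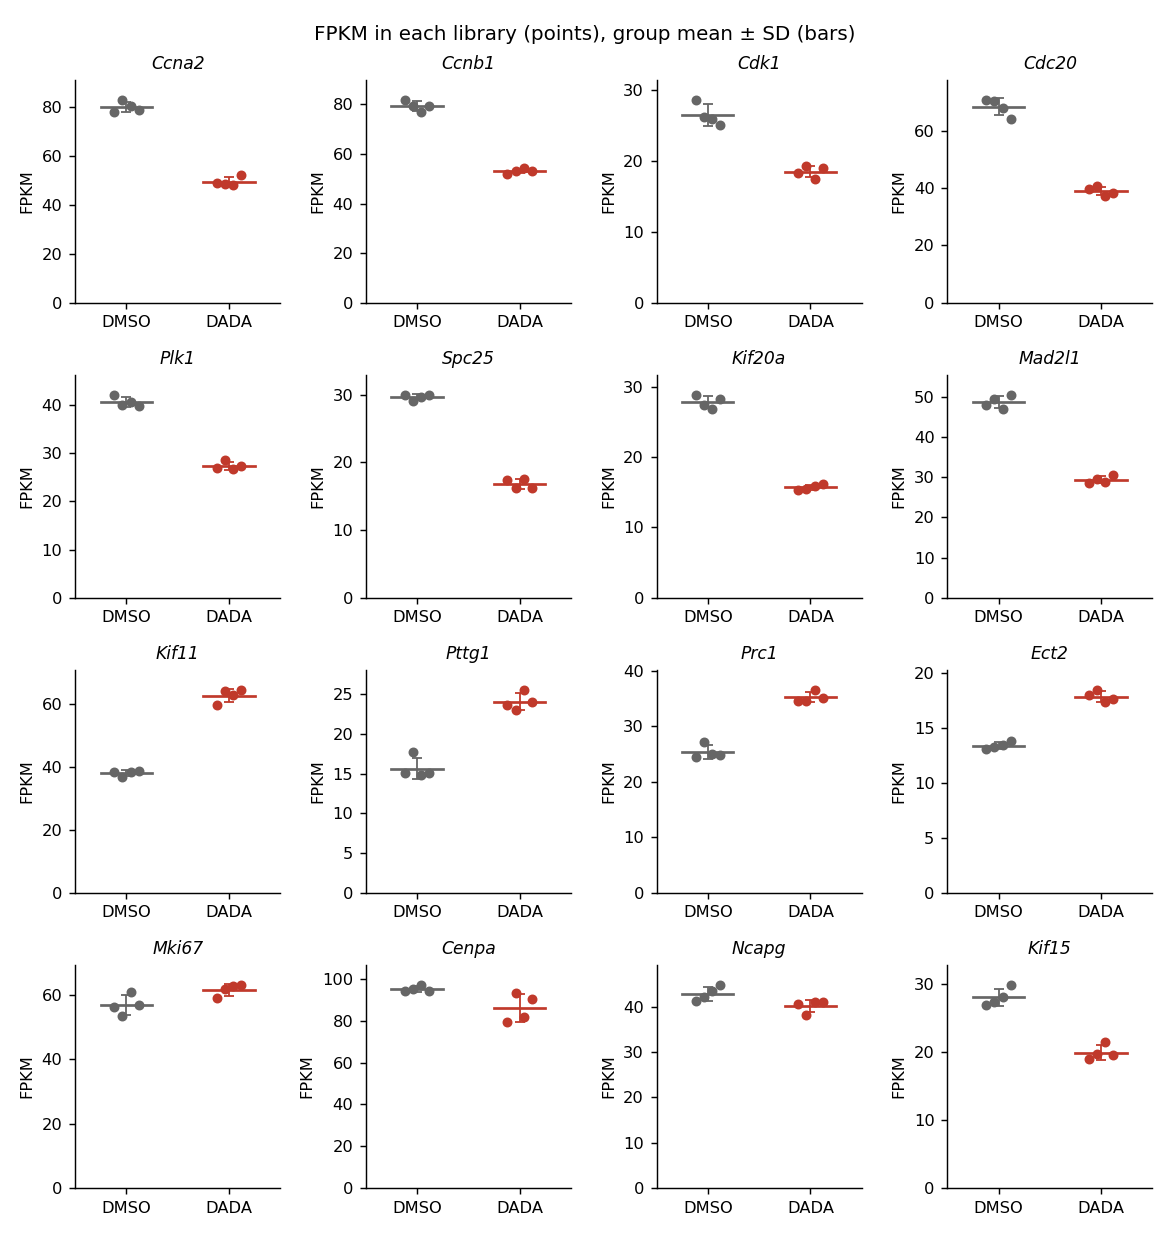
FPKM (vertical axes, from 0) of 16 of the genes in each library, with DMSO in grey and DADA in red; points are libraries, and bars are the mean ± SD of 4. The 2 groups overlap in Mki67 and are apart in the other 15 genes.

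The genes that work in the same complex or at the same step did not always keep their ratio. A set of 10 pairs of partner genes was chosen after their values had been seen, and their ratios within a library are given without a test. FPKM is scaled by transcript length, so that a ratio compares levels per length. Kif11 was at 1.3 to 1.43 times the level of Kif15 in the DMSO libraries and at 2.93 to 3.31 times in the DADA libraries. The ratio of Pttg1 to Espl1 was 0.916 to 1.14 with DMSO and 1.94 to 2.26 with DADA. The FPKM ratio of securin to separase thus rose by 1.1 on the log2 scale (± 0.082 SE). Prc1 was at 1.38 to 1.53 times the level of Kif4, its partner motor at the midzone, with DMSO and at 2.80 to 3.02 times with DADA. The ratio of Ect2 to Racgap1 was 0.229 to 0.257 with DMSO and 0.409 to 0.459 with DADA.

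Other partners stayed closer. The ratio of Ccnb1 to Cdk1 was 2.87 to 3.18 with DMSO and 2.76 to 3.11 with DADA, and these ranges overlapped, with a difference of -0.06 ± 0.05 (SE) on the log2 scale. Within the NDC80 complex, the ratio of Nuf2 to Ndc80 went from 1.09 to 1.22 with DMSO to 0.858 to 0.953 with DADA, and that of Spc25 to Spc24 from 0.800 to 0.914 to 0.645 to 0.746. The condensin ATPases had the tightest ratio, with Smc2 at 0.387 to 0.393 times Smc4 in DMSO and at 0.344 to 0.357 times in DADA. Bub1 was at 0.659 to 0.731 times the level of Bub1b with DMSO and at 0.936 to 0.967 times with DADA. Kif23 was at 0.426 to 0.495 times the level of Racgap1, the other subunit of centralspindlin, with DMSO and at 0.363 to 0.394 times with DADA.

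**Figure D4:**
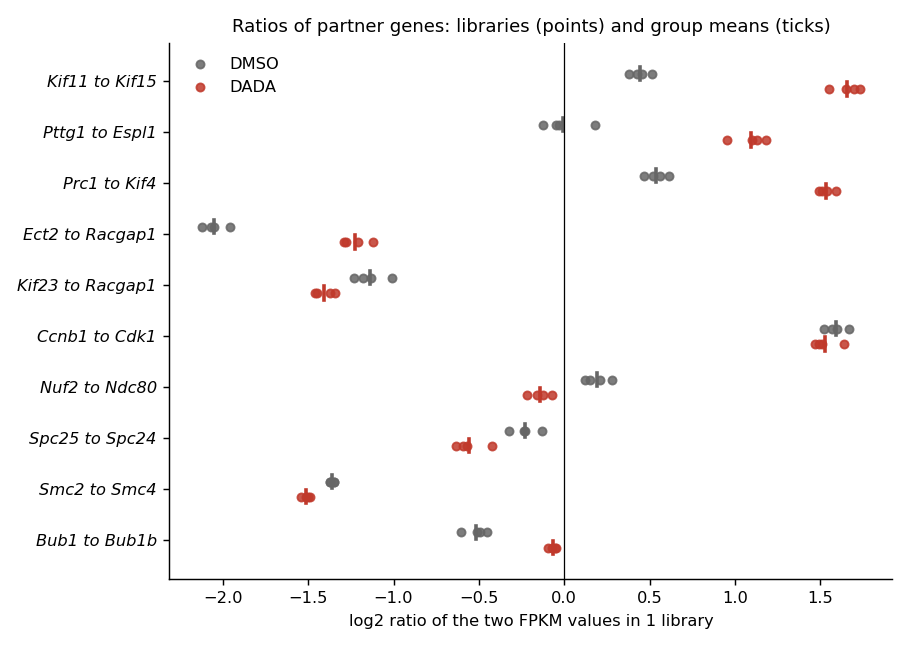
Log2 ratio of the FPKM values of 10 pairs of partner genes (horizontal axis) in each library, with DMSO in grey and DADA in red; ticks are the means of 4 libraries. Kif11 to Kif15, Pttg1 to Espl1, Prc1 to Kif4 and Ect2 to Racgap1 shift to the right by 0.83 to 1.21, and Ccnb1 to Cdk1 overlaps.

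Among other genes of mitosis, none of them among the 53, falls also outnumbered rises. Of 121 listed and tested, 84 fell and 9 rose, against 35.3% and 30.9% of all genes tested, with a median log2 fold change of -0.28. The checkpoint and chromosome protection genes were lower in 9 and higher in 1 of 10 (median -0.52). A mixed group of kinases, phosphatases and other genes listed under mitotic entry, such as Cks1b, Ccnf and Troap, had 13 lower and 1 higher of 15 (median -0.43). Spindle factors and further kinesins were lower in 24 and higher in 1 of 29 (median -0.39), kinetochore genes in 19 and 1 of 26 (median -0.30), and condensin and cohesin genes in 10 and 1 of 15 (median -0.13). The group of the anaphase-promoting complex had 7 lower and 3 higher of 16 (median -0.07). It took in subunits of the complex together with its regulators Fzr1 and Fbxo5 and the enzyme Ube2s, which all fell (log2 fold change -0.16, -0.57 and -0.28). Further cytokinesis genes had 2 lower and 1 higher of 10 (median -0.06). For these groups the share that fell was near or below that of all genes tested. The largest falls were those of 2 kinetochore genes, Cenpm (17.6 ± 1.62 to 7.98 ± 0.46 FPKM, log2 fold change -1.05) and Cenpk (22.9 ± 1.89 to 11.7 ± 0.72 FPKM, -0.91), and of Trip13, a remodeller of MAD2 (23.9 ± 0.70 to 13.1 ± 0.51 FPKM, -0.82). The largest rises were those of Chmp4b, an ESCRT-III subunit of abscission (87.5 ± 5.44 to 140.6 ± 6.16 FPKM, 0.68), Anapc16, a small subunit of the anaphase-promoting complex (33.9 ± 0.32 to 45.2 ± 2.46 FPKM, 0.40), and Hjurp, the chaperone of CENP-A (50.7 ± 1.40 to 63.0 ± 2.36 FPKM, 0.31).

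DNA replication genes act earlier in the cell cycle, in G1 and S phase. Of 45, 41 fell and 2 rose, against 35.3% and 30.9% of all genes tested, with a median log2 fold change of -0.35. All 6 genes of nucleotide supply fell, among them Tyms, the thymidylate synthase (23.8 ± 1.43 to 11.7 ± 0.54 FPKM, log2 fold change -0.97), and Tk1, the thymidine kinase (49.8 ± 1.81 to 29.2 ± 1.92 FPKM, -0.75). Pold2, a subunit of DNA polymerase delta, followed (56.6 ± 1.51 to 34.2 ± 0.80 FPKM, -0.71). The genes that rose were Cdc6, which loads the replicative helicase (12.6 ± 0.16 to 17.8 ± 0.61 FPKM, 0.47), and Pole2, a subunit of DNA polymerase epsilon (14.6 ± 0.26 to 15.5 ± 0.42 FPKM, 0.08, limma adjusted p = 0.0490). The call of Pole2 was lost under quantile normalization and under a block by replicate number (adjusted p = 0.0877 and 0.0915). Leaving out any library other than DADA 3 also ended it (adjusted p from 0.0502 without DMSO 1 to 0.136 without DADA 4).

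**Figure D5:**
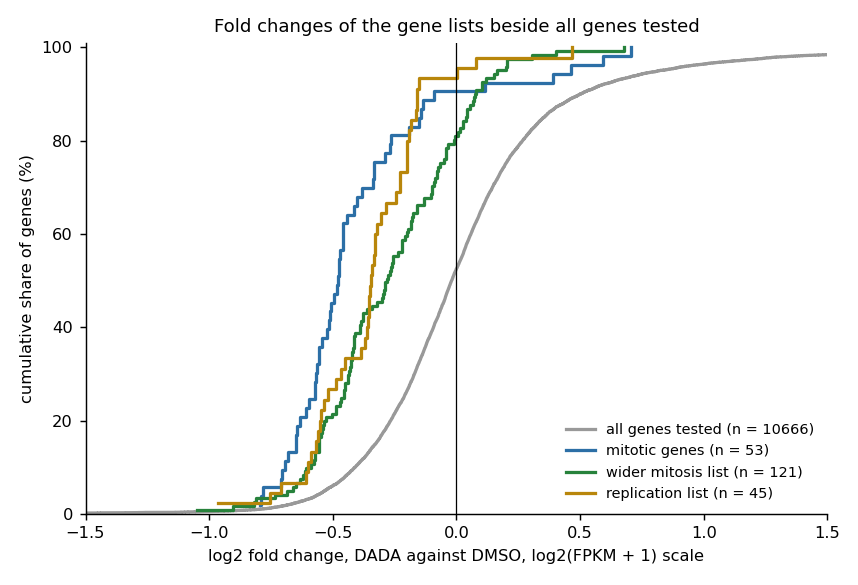
Cumulative share of genes (vertical axis, percent) by log2 fold change of DADA against DMSO on the log2(FPKM + 1) scale (horizontal axis), for the 53 mitotic genes, 121 other genes of mitosis, 45 replication genes and all 10666 genes tested. The curves of the mitotic and replication genes lie left of the curve of all genes over most of the axis, with medians of -0.48, -0.35 and -0.02.

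Transcription regulators of G2 and M phase moved in both directions, with 8 lower and 5 higher of 20 (median log2 fold change -0.07). These shares lie near those of all genes tested (35.3% lower and 30.9% higher), so the counts are no result about the regulators. The largest falls were those of Tfdp1, the dimer partner of E2F factors (182.9 ± 3.89 to 119.1 ± 2.46 FPKM, log2 fold change -0.61), Foxm1, the forkhead factor of G2 and M genes (17.4 ± 0.51 to 12.6 ± 0.53 FPKM, -0.44), and Rbbp4, a MuvB subunit (77.0 ± 1.92 to 59.2 ± 0.63 FPKM, -0.37). The largest rises were those of the MuvB subunits Lin37 (13.3 ± 1.20 to 16.7 ± 0.77 FPKM, 0.32) and Lin54, which contacts the CHR element (14.7 ± 0.20 to 16.8 ± 0.19 FPKM, 0.18), and of E2f1 (8.75 ± 0.92 to 10.1 ± 0.59 FPKM, 0.19), whose groups overlapped. The call of E2f1 was lost with no filter on low values and under quantile normalization (adjusted p = 0.0587 and 0.0633), and without DMSO 3, DMSO 4, DADA 1, DADA 2 or DADA 4 (adjusted p from 0.0514 to 0.0846).

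The libraries separated by treatment and carried the markers of CD8+ T cells. The first principal component took up 80.1% of the variance, correlations of log2(FPKM + 1) were at least 0.993 within a group and at most 0.961 between the groups, and no library stood apart. All 5 CD8+ T cell markers reached 1 FPKM, with summed levels of 674 to 680 FPKM in DMSO and 776 to 805 FPKM in DADA, and Cd4 stayed at or under 0.411 FPKM. Of 6 B cell markers 2 reached 1 FPKM (sums 2.78 to 3.76 and 3.23 to 4.40 FPKM), and of 5 erythroid markers none did (0.0920 to 0.332 and 0.0726 to 0.155 FPKM). The 2 B cell markers were Cd79b (2.42 to 3.47 FPKM with DMSO and 2.18 to 2.90 FPKM with DADA) and Ebf1 (0.183 to 0.313 and 0.866 to 1.42 FPKM). Ebf1 was higher in every DADA library, and the B cell marker Pax5 was at 0. Of 4 CD4 T cell markers (sums 16.3 to 17.4 and 15.3 to 15.8 FPKM) only Zbtb7b reached 1 FPKM (15.9 to 16.7 and 14.8 to 15.3 FPKM). Foxp3 was higher in every DADA library but below 1 FPKM (0.043 to 0.103 and 0.187 to 0.268 FPKM), and Cd40lg stayed at or under 0.279 FPKM. Of 6 myeloid markers (sums 73.3 to 77.1 and 59.9 to 64.4 FPKM) only Cst3 reached 1 FPKM (73.2 to 77.1 and 59.8 to 64.2 FPKM), with Csf1r and Adgre1 at 0. The NK cell list had higher sums with DADA (328 to 344 and 495 to 526 FPKM), through Nkg7 (314.0 to 330.9 and 484.4 to 514.6 FPKM), which cytotoxic T cells also express. Of the other NK markers, Eomes was lower in every DADA library (13.3 to 14.1 and 9.96 to 10.96 FPKM), Klrb1c was higher in every DADA library but below 1 FPKM (0 to 0.0480 and 0.144 to 0.249 FPKM), and Ncr1 stayed at or under 0.136 FPKM. The part of the marker lists that moved with DADA in the changes of the mitotic genes was not tested.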

How the data were processed

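The RNA-seq libraries were 4 with DMSO and 4 with DADA, all of mouse CD8+ T cells, grouped by their titles and the treatment protocol. The values are FPKM, as deposited by the authors for each gene in each library. The submitters' processing notes list CASAVA 1.8.2, FastQC 0.11.9, HISAT2 2.0.5, StringTie 1.3.3, Picard 1.41 and SAMtools 0.1.18, and the builds GRCm39 and GRCh38, without their roles. Labels and methods name different library kits. The strand setting is not given in the sources used here.

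The 53 genes were matched by symbol. The genes and the lists were chosen with earlier results of these data known. Values were analysed as log2(FPKM + 1) for genes of at least 1 FPKM in at least 4 of 8 libraries, with limma 3.58.1 in R 4.3.3 (mean-variance trend, Benjamini-Hochberg adjustment, calls at an adjusted p-value under 0.05). The pseudocount of 1 understates the change of genes with low FPKM. An exact permutation test (two-sided, 70 assignments of the libraries, smallest p 0.0286) was used for single values. Values in each library are given for the largest rise, the largest fall and the most abundant gene of each role, and for Mki67, Cdk1, Ccnb1, Aurkb, Plk1 and Cdc20. Ect2 and Ncapg were added after their values were seen. The 3 largest changes in each direction are named from each further list. The fit was tested on simulated data of 10666 genes for the comparison of DADA with DMSO. It recovered 28 of 50 genes changed by 0.25 on the log2 scale and 46 of 50 changed by 0.5. All 50 changed by 1 and all 50 changed by 2 were recovered, with 12 false among 186 calls. In the real data 7064 genes were called, so the adjustment was less strict there, and the simulated shares do not carry over to it.

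FPKM holds no read counts. At the depth estimated for each library, between 41.9% and 52.0% of low values lay near a whole fragment (within 0.1, over 4431 genes with 1 transcript). A depth fixed in advance would give 20% by chance. The depths were searched for by this same nearness, so 20% is no baseline for these shares. The estimated depths differed up to 1.83 times between libraries, so depth is unknown, and no counting interval or count test was used. Promoters came from RefSeq on GRCm38.p6, and near-identical copies (at least 95% over 300 bases) and overlapping exons from GENCODE M21, since no genome of the files' build was used here. The alternatives were a pseudocount of 0.1, no filter, a mean of at least 5 FPKM, TPM, median-ratio scaling, quantile normalization, a fit without the variance trend, a block by replicate number and leaving out each library. Scripts used Python 3.11.15, numpy 2.4.6, scipy 1.17.1, pandas 2.3.3 and matplotlib 3.10.9.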

Additional observations from a re-analysis of the deposited data

Results flagged for a closer look

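In 3 of 160 groups of 4 libraries (the 53 genes, the further named genes and the ratios of partner genes, in each treatment), 1 library lay far from the other 3, where chance alone would give about 8. The gap to the nearest library, as a share of the range of the group, was 0.843 for Ccna2 in DADA 4, which was the highest DADA library. It was 0.906 for Kifc1 in DADA 3, the lowest DADA library, and 0.896 for Pttg1 in DMSO 2, the highest DMSO library. The shares were past Dixon's 95% critical value for 4 libraries. None of the 3 libraries closed the gap between DMSO and DADA in its gene.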

How the results depend on the processing

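Of the 53 genes, 50 kept their direction and their call under all 16 alternatives, and no gene changed direction. The exceptions were Cenpa, Ncapg and Mki67, whose values are given with the genes. The count of genes that fell ranged from 46 to 48, and the count that rose was 5 under every alternative other than leaving out a library, where it was 4 or 5. The median log2 fold change of the 53 genes lay between -0.50 and -0.45, while the median of all genes tested moved between -0.05 and 0.02. The count of replication genes that rose was 1, not 2, under quantile normalization and under the replicate block, and ranged from 1 to 2 with a library left out. In each case the call lost was that of Pole2. Among the 17 genes named from further lists, E2f1 also lost its call, and the other 15 kept theirs. The causes were not tested. Whether libraries with the same replicate number share an origin is not known. Their deviations from the group means correlated at 0.0953, -0.12, -0.0877 and 0.0751, within the range of -0.267 to 0.134 for libraries with different numbers. Deviations around means of only 4 libraries cannot settle whether the libraries were paired. With the replicate number as a block, 48 of the 53 genes fell and 5 rose. FPKM without counts limits what can be said of depth.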
